A study of Mus musculus with 8 samples.

Results

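Matured chondrocytes of the petrous temporal bone (PTB) were taken as the nuclei that the deposited annotation names Matured chondrocyte, matched by library and barcode to the raw matrices of unique molecular identifiers (UMIs). They numbered 587 of 31076 annotated PTB nuclei, which themselves were part of 63177 barcodes. The nuclei came from WT and Tbx1+/- littermates at postnatal day 5.5 and were profiled by single-nucleus RNA sequencing (snRNA-seq). Tbx1+/- mice carry a single functional allele of Tbx1, a T-box transcription factor, in every cell. Each genotype had 2 libraries, replicates 1 and 2, and each library pooled frozen, pulverised bone from 5 mice. The libraries are therefore the replicates, and p-values measure the spread between these pools. The study describes 2 separate batches of animals, and libraries that share a replicate number were taken as a batch.

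Chondrocytes build cartilage by secreting fibrils of type II, IX and XI collagen and a gel of aggrecan, a proteoglycan that hyaluronan and link protein hold in place. In endochondral bone they divide, stop dividing and enlarge under the control of Indian hedgehog and parathyroid hormone-related protein, and the enlarged hypertrophic cells make type X collagen before bone replaces the cartilage. The PTB surrounds the inner ear, and its otic capsule forms through such a cartilage model.

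The annotated matured chondrocytes numbered 147 in WT replicate 1, 48 in Tbx1+/- replicate 1, 138 in WT replicate 2 and 254 in Tbx1+/- replicate 2. Their summed UMIs were 479236, 166846, 411994 and 856102 in that order, so that 1 UMI was worth 2.09, 5.99, 2.43 and 1.17 counts per 1000000 UMIs of the class in that library (CPM). Tbx1+/- replicate 1 thus gave the least precise values. With medians of 2744, 2963, 2339 and 2483 UMIs per nucleus, matured chondrocytes had the shallowest nuclei of the 7 classes compared in each library. They also had the highest median mitochondrial share, 1.60%, 1.44%, 1.14% and 1.32% of UMIs against 1.34%, 1.06%, 0.647% and 0.755% in chondrocyte progenitors, and the part of this in the class differences was not tested. No matured chondrocyte barcode was shared between libraries. The other 6 classes were chondrocyte progenitors (CP1 to CP6), the class annotated as hypertrophic chondrocytes or osteoblasts (called the hypertrophic class here), osteoblasts, matured osteoblasts or osteocytes, connective tissue (CT1 to CT4) and osteoclasts.

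The name was checked against Acan (aggrecan core protein, ENSMUSG00000030607, chromosome 7, 79053483 to 79115099) and Col2a1 (type II collagen, ENSMUSG00000022483, chromosome 15, 97975602 to 98004695), with coordinates on GRCm38 from GENCODE vM21. Summed over the class, both genes were above every other class in each library. The authors curated the clusters by markers, and the paper uses Col2a1 for chondrocytes, so this is a description and no test of the name. The nuclei, however, were not alike in all libraries. Each nucleus was thinned to 1400 UMIs, and UMIs of 8 cartilage genes with little free RNA were added: Acan, Hapln1, Matn1, Matn3, Comp, Cnmd, Snorc and Epyc. These genes were chosen after their values were seen, as members of the matrix list over 100 CPM in matured chondrocytes and under 50 CPM in osteoclasts. Both limits were means over the 4 libraries, and Epyc passed the first only through Tbx1+/- replicate 1, at 198 CPM. How far this choice of genes sets the libraries apart was not tested. At least 2 such UMIs were found in 138 of 147 nuclei of WT replicate 1 (93.9%, exact 95% interval 88.7 to 97.2%) and in 46 of 48 of Tbx1+/- replicate 1 (95.8%, 85.7 to 99.5%). In the replicate 2 libraries they were found in 62 of 138 WT nuclei (44.9%, 36.5 to 53.6%) and 135 of 254 Tbx1+/- nuclei (53.1%, 46.8 to 59.4%). The replicate 2 libraries of both genotypes therefore stood apart from those of replicate 1, and the intervals, which cover counting error only, did not overlap between batches. Near the limit of 2 UMIs, the 4 libraries in the same order held 8, 2, 28 and 50 nuclei with 1 UMI and 12, 2, 11 and 18 with 2.

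**Figure D1:**
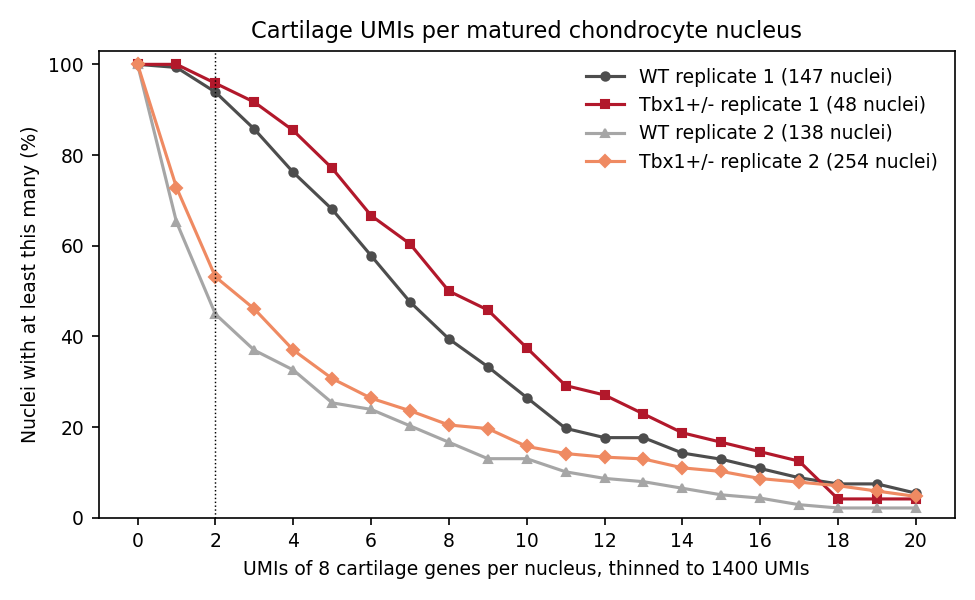
Share of matured chondrocyte nuclei (y axis, percent) with at least the given number of UMIs from 8 cartilage genes (x axis) after thinning each nucleus to 1400 UMIs, with 1 line per library. The lines of both replicate 1 libraries run above those of both replicate 2 libraries up to 16 UMIs, and the dotted line marks 2 UMIs.

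Free RNA in droplets gives such UMIs to any nucleus, so osteoclasts served as the background. Of thinned osteoclast nuclei, 4.68%, 3.74%, 1.88% and 1.68% had at least 2 of these UMIs, again in the order WT replicate 1, Tbx1+/- replicate 1, WT replicate 2 and Tbx1+/- replicate 2. Among chondrocyte progenitors the shares were 14.9%, 10.4%, 8.87% and 10.9%. Without thinning, at least 1 of these UMIs was present in 100%, 100%, 73.2% and 81.9% of matured chondrocytes, against 58.3%, 53.2%, 39.1% and 44.5% of osteoclasts, whose medians were 4963, 5323, 7105 and 6617 UMIs. Because the 8 genes were chosen as low in osteoclasts, these gaps follow from the choice and are no finding.

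The replicate 2 nuclei with 0 or 1 cartilage UMI differed from the others in genes that did not define them. This is a description, since cartilage genes vary together. Col2a1 stood at 867 CPM in those of WT replicate 2 and 1336 CPM in those of Tbx1+/- replicate 2, against 3706 and 4712 CPM in the nuclei with 2 or more. Wwp2, a ubiquitin ligase gene that is host to a microRNA of cartilage, stood at 345 and 236 CPM against 1893 and 1573 CPM. All 7 fibril collagens were more than 1.5-fold higher in the nuclei with 2 or more in both libraries (median log2 differences 2.08 and 1.81), as were 1366 of 7898 and 942 of 7866 of all genes (medians -0.03 and -0.12). Of the osteoblast list, 4 of 12 genes in WT replicate 2 and 2 of 13 in Tbx1+/- replicate 2 were lower in the nuclei with 2 or more, against 1533 of 7898 and 1568 of 7866 of all genes. Its members did not move together, since Col1a1, the type I collagen of bone, was at 6308 and 5642 CPM in the nuclei with 0 or 1 against 3523 and 3188 CPM, whereas Runx2 was at 2800 and 3474 CPM against 4572 and 4394 CPM. The proliferation marker Mki67 was at 372 and 212 CPM against 134 and 59.5 CPM. Of G2/M genes, 12 of 17 in WT replicate 2 and 9 of 13 in Tbx1+/- replicate 2 were lower in the nuclei with 2 or more, and 1 and 0 higher. Of S phase genes, 7 of 15 and 11 of 12 were lower, and 2 and 0 higher. Log2 levels of these nuclei correlated at a Pearson r of 0.788 with the hypertrophic class (7978 genes), 0.779 with osteoblasts, 0.774 with connective tissue and 0.765 with chondrocyte progenitors in WT replicate 2. In Tbx1+/- replicate 2 these values were 0.807 (8073 genes), 0.796, 0.798 and 0.796. The points are genes of the same libraries, with shared free RNA, and the values are too close to each other to single out a class. The class is kept below as annotated, with values for the nuclei with 2 or more cartilage UMIs beside some of the genes.

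Next, the share of matured chondrocytes was compared between genotypes. They made up 1.47% of annotated nuclei (exact 95% interval 1.25 to 1.73%) in WT replicate 1 and 0.551% (0.407 to 0.731%) in Tbx1+/- replicate 1. In replicate 2 they made up 2.31% (1.94 to 2.72%) of WT and 3.96% (3.50 to 4.47%) of Tbx1+/- nuclei. The Tbx1+/- libraries held the lowest and the highest share, so the groups overlapped. By edgeR's quasi-likelihood test across 7 classes the log2 change was 0.25 (SE 1.10, n = 2 libraries per genotype, adjusted p = 0.833), and with a replicate block it was -0.27 (SE 0.46, adjusted p = 0.700). Without Tbx1+/- replicate 2 the log2 change was -1.75 (adjusted p = 0.0127 by edgeR), and without Tbx1+/- replicate 1 it was 1.09 (adjusted p = 0.0536), both under the false discovery rate of 0.1 and in opposite directions.

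**Figure D2:**
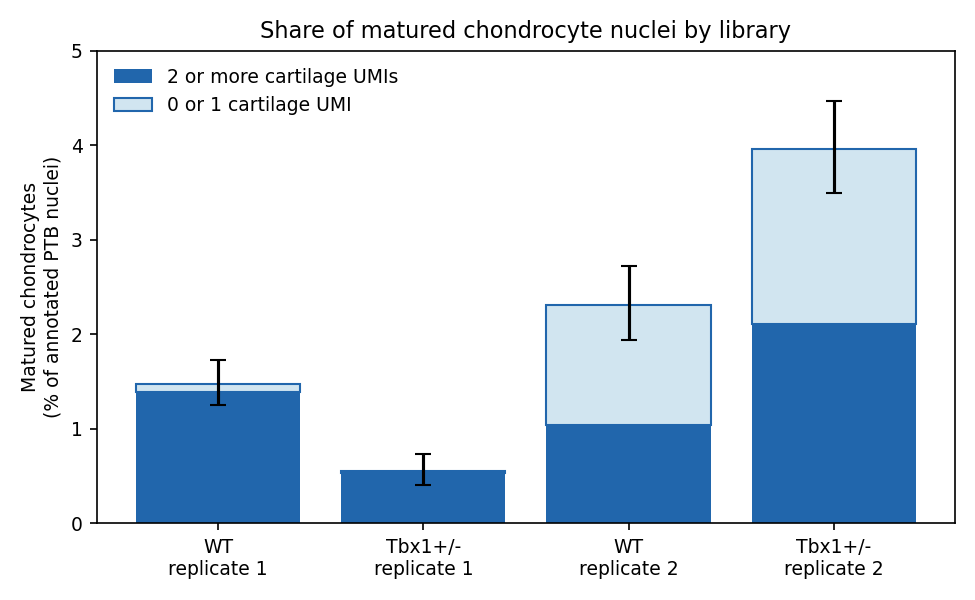
Matured chondrocytes as a percent of annotated PTB nuclei in each library (bar height), divided into nuclei with 2 or more (dark) and 0 or 1 (light) cartilage UMIs after thinning, with exact 95% binomial intervals of the whole bar. The light part is 0.0902% and 0.0230% in the replicate 1 libraries and 1.27% and 1.86% in the replicate 2 libraries.

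Nuclei with 2 or more cartilage UMIs made up 1.38% of annotated nuclei in WT replicate 1, 0.528% in Tbx1+/- replicate 1, 1.04% in WT replicate 2 and 2.10% in Tbx1+/- replicate 2. Counted this way, the WT libraries stood close to each other, and the Tbx1+/- libraries again lay on either side of them (log2 change 0.09, SE 0.77, adjusted p = 0.909 by edgeR). Per 100 chondrocyte progenitors there were 3.35 matured chondrocytes in WT replicate 1 and 1.52 in Tbx1+/- replicate 1, then 5.69 and 10.1 in replicate 2. The log2 ratio of Tbx1+/- to WT was -1.14 within the first batch and 0.83 within the second, with a mean of -0.15. The exact two-sided permutation test over libraries gave p = 1, and the smallest p it can give with 2 libraries against 2 is 0.333.

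Tbx1 itself (ENSMUSG00000009097, chromosome 16, 18580979 to 18590671, minus strand) had 0 UMIs in WT replicate 1, 1 in Tbx1+/- replicate 1, 1 in WT replicate 2 and 11 in Tbx1+/- replicate 2. These equal 0, 5.99, 2.43 and 12.8 CPM, and 3 UMIs, the limit that a count of 0 allows, would be 6.26, 18.0, 7.28 and 3.50 CPM. Only Tbx1+/- replicate 2 was above its limit, and Tbx1 was too low for the test across genes. Chondrocyte progenitors averaged 51.0 ± 9.42 CPM of Tbx1 (SD, n = 4 libraries) and osteoclasts 11.2 CPM. The matured chondrocytes therefore give no check of the genotype labels.

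Levels were then compared with the other classes within each library. Because the annotation rests on clustering of these same genes, such differences are a description and no test was run. A gene was counted as higher or lower where log2((CPM + 10)/(CPM + 10)) passed 1.5-fold in the same direction in all 4 libraries, among genes with a mean of at least 20 CPM over both classes. Against chondrocyte progenitors, 3.43% of 7998 genes were higher in matured chondrocytes and 8.34% lower. Against the hypertrophic class, 4.05% of 7902 genes were higher and 6.95% lower. Against osteoblasts 5.06% were higher and 5.96% lower, against matured osteoblasts 7.06% and 7.4%, against connective tissue 2.95% and 7.21%, and against osteoclasts 12.1% and 13.3%. Over all 6 other classes, 1.11% of 7779 genes were higher in matured chondrocytes than in each of them.

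The 20 genes with the widest margin over every other class began with Hapln1, Comp, Matn1, Matn3, Acan and Snorc, all genes of cartilage matrix proteins. Further down came Clec3a, Csgalnact1, Col27a1, Cnmd, Ihh and Col10a1. The remaining 8, which were in none of the lists, were Hspg2 (perlecan, a proteoglycan), C1qtnf3, Prkg2 (cGMP-dependent protein kinase II), Zim1 (an imprinted zinc finger gene), Nim1k, Serinc5, Wscd2 and Gm43154. Prkg2 stood at 469 CPM in WT replicate 1, 605 in Tbx1+/- replicate 1, 206 in WT replicate 2 and 475 in Tbx1+/- replicate 2, against a mean of 31.3 CPM in chondrocyte progenitors. Zim1 stood at 605, 851, 430 and 509 CPM in the same order, against 79.5 CPM in progenitors and 24.4 CPM in the hypertrophic class. All 4 libraries were above these means for both genes.

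Because these genes were high together, the 250 bases before their start sites were read from RefSeq (GRCm38.p6), which matched 13 of the 20. The start sites are those of RefSeq and can differ from the GENCODE starts given for the genes. Sequences are shown for Acan, a marker the name was checked against, and for Col10a1, the one match to the letters searched. The search was for the SOX-type letters ACAAAG and ACAATG and their reverse complements CTTTGT and CATTGT, which capitals mark.
Acan (chr7:79052976-79053225, plus strand): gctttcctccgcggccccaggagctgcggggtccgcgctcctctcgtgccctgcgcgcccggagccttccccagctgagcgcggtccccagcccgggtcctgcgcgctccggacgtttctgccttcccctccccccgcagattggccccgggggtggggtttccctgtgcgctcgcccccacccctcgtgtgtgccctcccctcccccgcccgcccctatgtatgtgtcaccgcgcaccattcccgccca
Col10a1 (chr10:34389731-34389980, plus strand): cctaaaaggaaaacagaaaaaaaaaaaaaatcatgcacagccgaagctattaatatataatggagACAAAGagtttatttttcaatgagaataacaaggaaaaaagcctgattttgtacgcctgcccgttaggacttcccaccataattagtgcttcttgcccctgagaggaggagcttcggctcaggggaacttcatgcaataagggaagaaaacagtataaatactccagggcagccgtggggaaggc
Of the 13 windows, 7.69% held the letters, against 28.2% of the windows of 27025 RefSeq symbols. A match is a description of letters, and no match says only that they are not in this window.

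Among the fibril collagens, Col2a1 stood at 5217 CPM in WT replicate 1, 3902 in Tbx1+/- replicate 1, 2148 in WT replicate 2 and 3390 in Tbx1+/- replicate 2. WT replicate 2 was the lowest library, and each was 2.48 to 4.03 times its own chondrocyte progenitors. Among progenitor types CP5 came nearest, at 2063, 1803, 1519 and 1886 CPM of Col2a1 in the same order, closest to matured chondrocytes in WT replicate 2. Col27a1, a minor fibrillar collagen of cartilage, stood at 3061, 3794, 1915 and 2232 CPM, with progenitors at 596 ± 46.7 CPM. In nuclei with 2 or more cartilage UMIs it stood at 3056, 3932, 3405 and 3263 CPM, with Tbx1+/- replicate 2 still under Tbx1+/- replicate 1. These nuclei were kept for cartilage UMIs, so a higher level there follows in part from that choice. Col11a1, which sets fibril diameter, averaged 7364 ± 2230 CPM in matured chondrocytes, 2123 in progenitors and 8453 in osteoblasts, so it did not separate cartilage from bone. Col11a1 ran from 7578 CPM in WT replicate 2 to 9521 CPM in WT replicate 1 in nuclei with 2 or more cartilage UMIs. The type IX genes Col9a1, Col9a2 and Col9a3, whose products coat the fibril, averaged 1418 ± 547, 372 ± 149 and 692 ± 271 CPM, at 1.93, 2.22 and 1.89 times their progenitor means. Of the 7 fibril collagens, 5 were higher than in progenitors (median log2 difference 1.17, against -0.02 over all genes) and 7 were higher than in the hypertrophic class. Col9a1 and Col9a3 did not pass against progenitors in all 4 libraries. All 7 were also higher than in connective tissue, and 5 were higher than in osteoblasts.

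**Figure D3:**
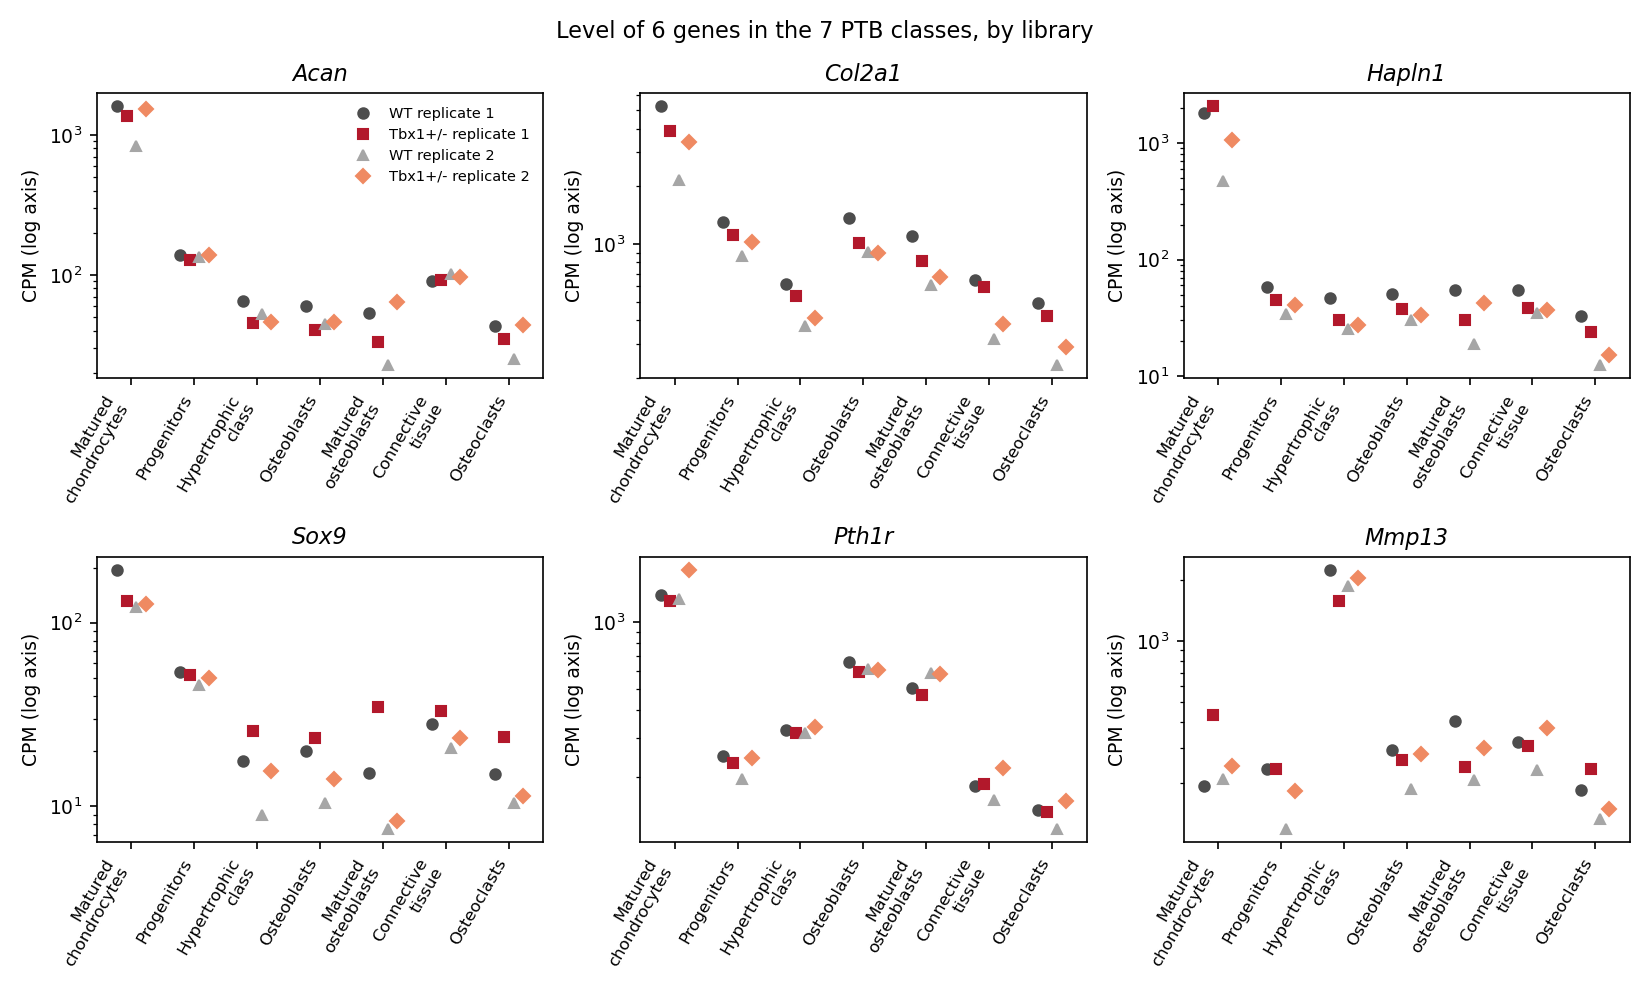
CPM on a log axis of 6 genes (panels) in the 7 PTB classes (x axis), with 1 point per library. Acan, Hapln1, Sox9 and Pth1r are highest in matured chondrocytes in all 4 libraries, while Mmp13 is highest in the hypertrophic class at a mean of 1923 CPM.

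The matrix genes around aggrecan showed the widest gaps. Acan stood at 1598 CPM in WT replicate 1, 1373 in Tbx1+/- replicate 1, 835 in WT replicate 2 and 1524 in Tbx1+/- replicate 2. Its mean of 1333 ± 345 CPM compared with 134 ± 4.86 in chondrocyte progenitors and 52.2 ± 9.02 in the hypertrophic class. Among progenitor types, CP2 came nearest at 234 ± 11.7 CPM of Acan. Hapln1, the link protein gene (ENSMUSG00000021613, chromosome 13, 89539796 to 89611652), stood at 1805, 2068, 468 and 1070 CPM against 44.3 ± 10.0 in progenitors. Both replicate 1 libraries were above both replicate 2 libraries, and each was 13.8 to 46.0 times its own progenitors. Matn1 and Matn3, which encode matrilins that link collagen fibrils to proteoglycans, averaged 383 ± 220 and 247 ± 121 CPM against 11.4 and 5.38 CPM in progenitors. Comp, which binds collagen fibrils, averaged 655 ± 238 CPM against 18.8 ± 4.31.

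Of 14 matrix genes tested against progenitors, 9 were higher and 1 was lower (median log2 difference 2.16). Of 13 tested against osteoblasts 11 were higher, and of 13 tested against connective tissue 8 were higher, with 0 lower in either. The exception was Otor, a secreted protein of the cochlea and its capsule, at 188, 204, 136 and 210 CPM in the usual order of libraries. All 4 values lay under the progenitor mean of 460 ± 151 CPM and above the hypertrophic mean of 116 CPM. Tbx18 and Coch, also on the list of otic capsule and periotic mesenchyme genes, averaged 140 and 23.2 CPM against 400 and 69.0 CPM in progenitors. Of 10 otic genes tested, 4 (Tbx1, Tbx18, Coch and Otor) were lower than in progenitors and 0 were higher, with a median log2 difference of -1.09. Of 10 tested against the hypertrophic class, 1 was higher (Tbx18) and 1 lower (Tbx1). Against osteoblasts 2 of 8 were higher (Tbx18 and Eya1) and 0 lower, and against connective tissue 0 of 8 were higher and 2 lower. Of 6 articular and perichondrial genes, 0 were higher and 0 lower.

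Sox9, the master regulator of chondrocyte identity, stood at 194 CPM in WT replicate 1, 132 in Tbx1+/- replicate 1, 121 in WT replicate 2 and 127 in Tbx1+/- replicate 2. WT replicate 1 was above the other libraries, which were alike, and each was 2.54 to 3.58 times its own progenitors. CP5, the progenitor type with most Sox9, stood at 90.2, 96.6, 109 and 109 CPM, so in replicate 2 the gap to it was small. In nuclei with 2 or more cartilage UMIs, Sox9 stood at 196, 135, 204 and 154 CPM. Its partners Sox5 and Sox6 averaged 1022 ± 330 and 2615 ± 944 CPM, against 601 and 664 CPM in progenitors. Sox5 ran from 1022 to 1431 CPM and Sox6 from 2589 to 3932 CPM in the nuclei with 2 or more cartilage UMIs. Wwp2 averaged 1452 ± 478 CPM against 191 ± 15.2. Runx2, the factor that drives hypertrophy and osteoblast fate, averaged 4006 ± 301 CPM, close to the 3916 ± 191 of progenitors and under the 6974 ± 329 of the hypertrophic class. Zbtb20 was lower than in progenitors, at 1722 ± 294 against 3649 ± 245 CPM. Of 11 chondrocyte factors tested, 4 (Sox9, Sox6, Wwp2 and Nfatc2) were higher than in progenitors and 1 (Zbtb20) lower. Sox5 did not pass 1.5-fold in all 4 libraries.

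Among growth plate signals, Ihh, the Indian hedgehog ligand of prehypertrophic cells, stood at 62.6 CPM in WT replicate 1, 59.9 in Tbx1+/- replicate 1, 29.1 in WT replicate 2 and 51.4 in Tbx1+/- replicate 2. All were above the 2.85 ± 1.09 CPM of progenitors, on 10 to 44 UMIs per library. Ptch1, its receptor and target, averaged 509 ± 43.5 CPM against 265 ± 20.3. Pth1r, the receptor for parathyroid hormone-related protein, stood at 1319, 1241, 1269 and 1718 CPM, with Tbx1+/- replicate 2 above the rest, and at 229 ± 23.2 CPM in progenitors. Its ligand gene Pthlh was at 3.45 ± 3.07 CPM, on 0 to 3 UMIs per library. Fgfr3, which restrains chondrocyte division, averaged 235 ± 65.3 CPM against 52.7 in progenitors, whereas Fgfr2 averaged 698 ± 71.3 against 1221 ± 85.7. The cation channel gene Trpv4 averaged 165 ± 66.3 CPM against 24.8. Of 20 signalling genes tested, 6 were higher and 1 lower than in progenitors.

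The hypertrophy list divided. Col10a1, the type X collagen of hypertrophic cartilage, stood at 179 CPM in WT replicate 1, 306 in Tbx1+/- replicate 1, 177 in WT replicate 2 and 104 in Tbx1+/- replicate 2. A single nucleus held 38 of the 51 UMIs in Tbx1+/- replicate 1 and another 56 of the 73 in WT replicate 2, so these levels rest on 1 nucleus each. In the remaining libraries no nucleus held more than 9 UMIs, and WT replicate 1 and Tbx1+/- replicate 2 were above their own hypertrophic class at 86.8 and 25.9 CPM. After thinning, 21.1%, 6.25%, 5.80% and 10.2% of matured chondrocytes had a Col10a1 UMI, against 3.51%, 2.86%, 1.56% and 1.40% of osteoclasts. Unthinned, these shares were 27.9%, 14.6%, 8.70% and 15.0% in matured chondrocytes and 11.7%, 9.45%, 5.94% and 6.16% in osteoclasts. Mmp13, the collagenase of late hypertrophic cells, averaged 270 ± 110 CPM against 1923 ± 283 in the hypertrophic class, and Spp1 (osteopontin) 1336 ± 153 against 4827 ± 2373. Of 13 hypertrophy genes tested against the hypertrophic class, Col10a1, Ihh and Pth1r were higher and Mmp13, Spp1 and Runx2 lower, with a median log2 difference of -0.38 (all genes -0.04).

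Genes that make and sulphate the chains of aggrecan formed a further group. Xylt1, which starts glycosaminoglycan chains, averaged 1193 ± 334 CPM against 157 ± 9.79 in progenitors. Csgalnact1, which starts chondroitin chains, stood at 653 CPM in WT replicate 1, 845 in Tbx1+/- replicate 1, 325 in WT replicate 2 and 404 in Tbx1+/- replicate 2, against 38.3 ± 2.75 in progenitors. Both replicate 1 libraries were above both replicate 2 libraries. Papss2, which makes the sulphate donor, averaged 225 ± 116 CPM against 38.5, and Ugdh, which makes the sugar donor UDP-glucuronate, 316 ± 81.4 against 57.8. Of 19 genes tested, 8 were higher and 1 lower than in progenitors (median log2 difference 0.68). Against osteoblasts 6 of 20 were higher and 2 lower, and against osteoclasts 9 of 19 were higher and 2 lower. The list nevertheless summed to 7451 to 8278 CPM in osteoclasts, in each library above matured chondrocytes (3740 to 6839 CPM). Of 24 genes of collagen folding and secretion, 5 were higher and 0 lower than in progenitors, among them P3h2, a prolyl hydroxylase, at 286 ± 110 CPM against 19.6. Against osteoblasts 2 of the 24 were higher and 1 lower. Of 16 genes of hypoxia and glycolysis, 4 were higher and 0 lower than in progenitors, among them Pgk1 at 73.1 ± 16.2 against 32.7 ± 8.15 CPM.

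Markers of other cells were also examined. Of 13 osteoblast genes, 0 were higher or lower than in progenitors, and 0 were higher and 3 lower than in the hypertrophic class. Their summed level was 16409 to 18312 CPM over the 4 libraries, against 12226 to 16118 CPM in progenitors and 35756 to 51496 CPM in osteoblasts. Osteoclast markers summed to 930 to 1468 CPM, in each library above its progenitors (513 to 1121 CPM), against 11158 to 12919 CPM in osteoclasts. Calcr, the defining receptor gene of osteoclasts, was at 0.814 ± 1.01 CPM. Neuron genes summed to 108 to 155 CPM against 408 to 518 CPM in progenitors, and immune genes to 1172 to 1966 against 3001 to 3364 CPM. Of 3 immune genes tested against progenitors, only Ebf1 was lower, and mesenchymal cells also use that gene. The part of these transcripts in any result was not tested. Xist (707 to 1132 CPM) and the Y-linked Ddx3y (49.1 to 106 CPM) were present in all 4 libraries, so each pool held both sexes. Erythroid genes summed to 935 to 1198 CPM in 3 libraries and 13323 CPM in WT replicate 2, in each library above its progenitors (428 to 790 CPM). In WT replicate 2, 5116 of 5462 haemoglobin UMIs lay in 2 nuclei, which held 0 of the 8 cartilage genes' UMIs, so results for haemoglobin genes rest on those nuclei.

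Gene expression was next compared between genotypes on the summed UMIs. By edgeR's quasi-likelihood test without a batch term, 0 of 7719 genes (0.0% in either direction) passed an adjusted p of 0.05 and 1.5-fold, and 196 had an unadjusted p under 0.05. DESeq2 called 0 of 19006, with 43 at an unadjusted p under 0.05. Both counts of unadjusted p lie under the share of 0.05 that chance alone would give. With the replicate block edgeR called 18 genes, 8 higher (0.104%) and 10 lower (0.130%) in Tbx1+/-. Tests were also run on simulated sums with these means and sizes, 1 dispersion of 0.0431 for all genes and no difference between batches. There edgeR called 76% to 81% of the genes set to a log2 change of 2 and 11% to 23% of those set to 1. DESeq2 called 52% to 56% and 2% to 4%. Most changes of 2-fold would thus be missed with 2 libraries per genotype at this depth and spread. Genes that vary more between replicates, such as those of cartilage, were not simulated apart.

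Of 5 cartilage genes compared between genotypes over the 4 libraries, none was called. The log2 change was 0.26 (SE 0.39) for Acan, -0.01 (SE 0.47) for Col2a1, 0.46 (SE 0.54) for Hapln1, 0.12 (SE 0.41) for Comp and -0.28 (SE 0.31) for Sox9, each with an adjusted p of 1.00 by edgeR. Acan, Col2a1 and Sox9 were lower in Tbx1+/- within the first batch and higher within the second, Hapln1 (0.20 and 1.17) and Comp (0.06 and 0.29) were higher within both, and the direction of all 5 turned when some library was left out. Without WT replicate 1, Hapln1 was called by edgeR at a log2 change of 1.76, and without WT replicate 2 it was -0.22. In nuclei with 2 or more cartilage UMIs, the Sox9 levels given above did not overlap between genotypes and were lower in Tbx1+/- (log2 change -0.42, SE 0.30, adjusted p = 1.00 by edgeR). Of 7 fibril collagens, 3 had a positive and 4 a negative log2 change (median -0.01), and of 14 matrix genes 7 and 7 (median 0.04), against 3881 and 3838 of all genes (median 0.00). By comparison, between WT replicates the same lists differed by medians of -1.17 and -1.22, replicate 2 lower. Between Tbx1+/- replicates they differed by -0.52 and -0.80, also replicate 2 lower.

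The genes named next had the smallest p among those with 1 direction in both batches, 5 each way, and were not called without the block (adjusted p = 1.00 each by edgeR). Rbfox1, a neuronal splicing factor, stood at 25.0 CPM in WT replicate 1, 192 in Tbx1+/- replicate 1, 55.8 in WT replicate 2 and 125 in Tbx1+/- replicate 2. Both Tbx1+/- libraries lay above both WT libraries, on 12 to 107 UMIs. The log2 change was 1.91 (SE 0.39, n = 2 libraries per genotype), and with the block 1.88 (SE 0.32, adjusted p = 1.50e-05 by edgeR). In progenitors Rbfox1 stood at 117, 109, 153 and 123 CPM in the same order, lower in Tbx1+/- within each batch. Nhej1, a factor of DNA end joining, stood at 35.5, 150, 41.3 and 79.4 CPM (log2 change 1.42, SE 0.37), and Tbx1+/- was again above WT. It passed with the block (log2 change 1.48, adjusted p = 0.0153 by edgeR).

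In the other direction, Bpifa1, a secreted protein of airway and middle ear epithelium, stood at 175 CPM in WT replicate 1, 59.9 in Tbx1+/- replicate 1, 117 in WT replicate 2 and 7.01 in Tbx1+/- replicate 2. The log2 change was -2.99 (SE 0.60), and with the block -2.78 (adjusted p = 7.76e-09 by edgeR). Without Tbx1+/- replicate 2 it was -1.27 (adjusted p = 0.885 by edgeR), and without Tbx1+/- replicate 1 it was -4.32. Both WT libraries lay above both Tbx1+/- libraries, but Bpifa1 also differed between these libraries in cells of another kind. Osteoclasts of the same libraries had 155, 44.5, 31.4 and 3.32 CPM of Bpifa1, and chondrocyte progenitors 175, 55.9, 62.3 and 3.65 CPM. Crispld1, a secreted protein gene, stood at 323, 132, 257 and 150 CPM in matured chondrocytes (log2 change -1.01, SE 0.28) and at 167, 166, 161 and 174 CPM in progenitors. It was not called with or without the block in the annotated class, but passed with both fits in nuclei with 2 or more cartilage UMIs.

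**Figure D4:**
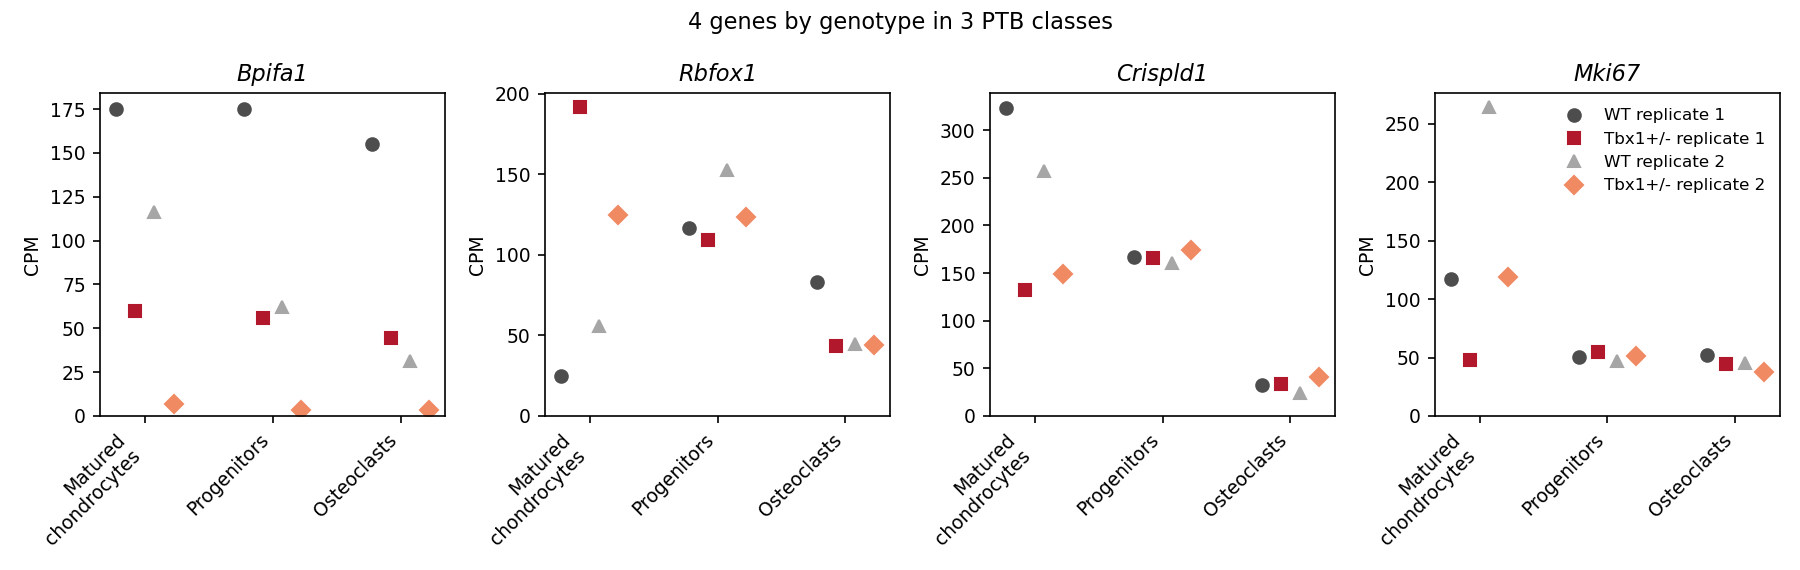
CPM (y axis) of Bpifa1, Rbfox1, Crispld1 and Mki67 (panels) in matured chondrocytes, chondrocyte progenitors and osteoclasts, with 1 point per library. Bpifa1 is highest in WT replicate 1 and lowest in Tbx1+/- replicate 2 in all 3 classes, while Crispld1 lies at 257 and 323 CPM in WT and at 132 and 150 CPM in Tbx1+/- matured chondrocytes and at 161 to 174 CPM in progenitors.

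Syf2 (1.80), Nnat (1.71), Kirrel3 (1.01), Rtl4 (-2.22), Fam155a (-1.98) and Hba-a1 (-2.93) were the others of this kind, with their log2 changes. Several rested on 1 library or nucleus, or moved when it was left out. Nnat was 0.54 without Tbx1+/- replicate 2, where 1 nucleus held 37 of 87 Nnat UMIs, and 0.67 in nuclei with 2 or more cartilage UMIs. Rtl4 was -1.28 without WT replicate 1. Without the nucleus with most Rtl4 UMIs in each library, it stood at 86.1, 12.6, 31.7 and 9.39 CPM in the usual order. Both WT libraries then still lay above both Tbx1+/- libraries. In nuclei with 2 or more cartilage UMIs Rtl4 was called without the block but not with it. For Fam155a, leaving out Tbx1+/- replicate 2 enlarged the change to -3.41, and 22 of the 29 UMIs of WT replicate 1 lay in 1 nucleus. Without the nucleus with most Fam155a UMIs in each library, levels were 14.7, 0, 53.0 and 16.4 CPM in the usual order. The groups then overlapped, with WT still higher within each batch. Hba-a1 stood at 196, 150, 2920 and 237 CPM in the usual order, so WT replicate 2 alone set its change, which was 0.056 without that library. Of the 18 genes called with the block, 12 were also called after leaving out nuclei with over 5% haemoglobin UMIs and 5 (Bpifa1, Enpp1, Nhej1, Rbfox1 and Ttn) in nuclei with 2 or more cartilage UMIs. Across the fits that each left out 1 library, 27 genes were called without WT replicate 1, 14 without Tbx1+/- replicate 1, 6 without WT replicate 2 and 13 without Tbx1+/- replicate 2, and 0 in all 4. Bmp6, a bone morphogenetic protein made by hypertrophic chondrocytes, was among the 18, at 177, 270, 77.7 and 235 CPM (log2 change 1.11 with the block, adjusted p = 0.0358 by edgeR). Ttn, the titin gene of muscle, stood at 87.6, 324, 29.1 and 26.9 CPM, with 33 of the 54 UMIs of Tbx1+/- replicate 1 in 1 nucleus, and muscle genes summed to 569 CPM in Tbx1+/- replicate 1 and to 37.4 to 179 CPM in the others. The log2 difference of Ttn was 1.77 in the first batch and -0.09 in the second. The groups of Bmp6 did not overlap, though WT replicate 1 and Tbx1+/- replicate 2 lay near each other.

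Genes of the G2 and M phases of cell division were examined next. Summed over 20 G2/M genes, matured chondrocytes stood at 810 CPM in WT replicate 1, 473 in Tbx1+/- replicate 1, 1425 in WT replicate 2 and 724 in Tbx1+/- replicate 2. Both Tbx1+/- libraries were below both WT libraries, with a log2 difference of -0.77 in the first batch and -0.98 in the second. The exact two-sided permutation test gave p = 0.333, the smallest it can give with 2 libraries against 2. A single nucleus held 101 of the 388 G2/M UMIs of WT replicate 1, and another 34 of the 79 of Tbx1+/- replicate 1. Leaving out the nucleus with most such UMIs in each library gave 609, 283, 1317 and 703 CPM, so the groups then overlapped, while Tbx1+/- stayed lower within each batch. In nuclei with 2 or more cartilage UMIs the sums were 834, 496, 963 and 484 CPM (log2 difference -0.87, exact permutation p = 0.333), and 623, 292, 704 and 442 CPM without the nucleus with most such UMIs in each library. In the replicate 2 nuclei with 0 or 1 cartilage UMI the sums were higher, 1805 CPM in WT and 1097 CPM in Tbx1+/-. In chondrocyte progenitors they were 486, 528, 506 and 582 CPM, both Tbx1+/- libraries slightly above both WT libraries. Matured osteoblasts stood at 213, 229, 131 and 216 CPM, also with both Tbx1+/- libraries above. In osteoclasts the sums were 438, 415, 462 and 260 CPM, both Tbx1+/- libraries below. The exact permutation test gave p = 0.333 in each of these classes too, so such a separation was not particular to matured chondrocytes. In the hypertrophic class, osteoblasts and connective tissue the groups overlapped. The difference between matured chondrocytes and the other classes in this respect was not tested.

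**Figure D5:**
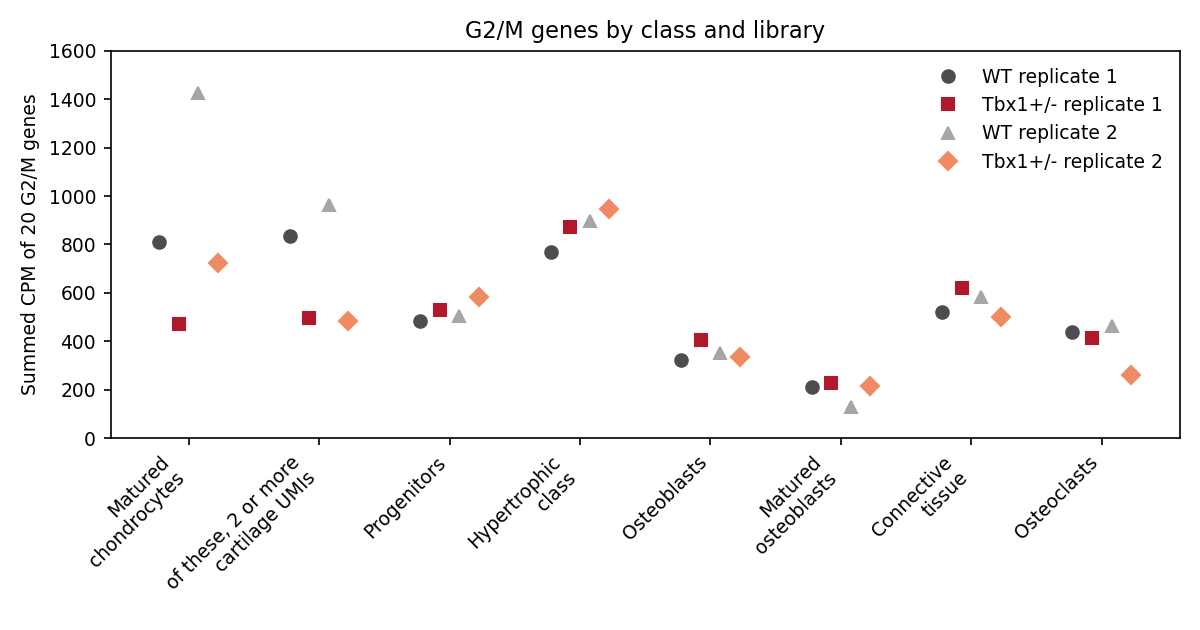
Summed CPM of 20 G2/M genes (y axis) in each class (x axis), with 1 point per library and matured chondrocytes shown both as annotated and for nuclei with 2 or more cartilage UMIs. In matured chondrocytes the Tbx1+/- libraries, at 473 and 724 CPM, lie below the WT libraries, at 810 and 1425 CPM. Without the 1 nucleus of each with most G2/M UMIs, however, WT replicate 1 is at 609 CPM and Tbx1+/- replicate 2 at 703 CPM. Both Tbx1+/- libraries also lie below WT in osteoclasts and above WT in chondrocyte progenitors and matured osteoblasts.

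All 13 G2/M genes tested had a negative log2 change in matured chondrocytes (median -0.86), against 3838 of all 7719 genes (median 0.00). Of the 13, 0 were called without the block. They share nuclei, and a few nuclei held many of their UMIs, so they are not 13 separate observations. Mki67 stood at 117 CPM in WT replicate 1, 47.9 in Tbx1+/- replicate 1, 265 in WT replicate 2 and 119 in Tbx1+/- replicate 2, so that Tbx1+/- replicate 2 lay just above WT replicate 1. Its log2 change was -0.96 (SE 0.41, adjusted p = 1.00 by edgeR), and with the block -1.16 (SE 0.29, adjusted p = 0.0358 by edgeR). Cenpf, a kinetochore gene, stood at 66.8, 30.0, 129 and 47.9 CPM (-1.13, and -1.34 with the block, adjusted p = 0.0358 by edgeR), with both WT libraries above both Tbx1+/- libraries. Top2a, the topoisomerase of dividing cells, stood at 131, 102, 257 and 137 CPM (-0.62) and passed neither fit. In nuclei with 2 or more cartilage UMIs Mki67 stood at 117, 51.6, 134 and 59.5 CPM, both WT libraries above both Tbx1+/- libraries, and neither Mki67 nor Cenpf was called in either fit. Thinned to 1400 UMIs, nuclei with at least 2 G2/M UMIs made up 17.7%, 8.33%, 32.6% and 21.7% of matured chondrocytes and 8.40% to 13.4% of osteoclasts, 11.6% in Tbx1+/- replicate 1. Without thinning, the shares with at least 1 such UMI were 55.8%, 54.2%, 68.1% and 62.2% in matured chondrocytes and 61.6% to 65.9% in the deeper osteoclasts. Osteoclasts include nuclei with up to 105 G2/M UMIs, so they are no measure of free RNA for these genes. The thinned share of Tbx1+/- replicate 1 rests on 4 of 48 nuclei (exact 95% interval 2.32 to 20.0%). For S phase genes the sums were 467, 396, 818 and 535 CPM (log2 difference -0.43, exact permutation p = 0.667), and the groups overlapped. They did not overlap in nuclei with 2 or more cartilage UMIs, at 469, 361, 688 and 348 CPM (log2 difference -0.68, exact permutation p = 0.333). S phase sums also did not overlap in chondrocyte progenitors, matured osteoblasts and osteoclasts, where both Tbx1+/- libraries were higher.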

How the data were processed

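The 4 PTB libraries of snRNA-seq comprised 2 WT and 2 Tbx1+/-. The count matrices, as deposited, list whole UMIs for every gene in every barcode; the authors mapped reads to mm10 with Cell Ranger 7.0.0, introns included. They hold neither the study's later filters on nuclei nor its SoupX correction for free RNA, which was not repeated here, and no doublet removal was found in the study's methods. Cell types are those of the deposited annotation, which the authors made by label transfer and curation of clusters. Gene coordinates came from GENCODE vM21, which holds 32235 of 32285 features. The cartilage, signalling, hypertrophy, synthesis, otic, cell cycle and marker lists and the members were chosen with earlier results of these data known.

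UMIs were summed per library over the nuclei of each class (Python 3.11.15, numpy 2.4.6, scipy 1.17.1, pandas 2.3.3). Genotypes were compared with the quasi-likelihood test of edgeR 4.0.16 in R 4.3.3 after filterByExpr and TMM scaling, adjusted by Benjamini-Hochberg over all genes and called at 0.05 and 1.5-fold. DESeq2 1.42.0 was run beside it. Standard errors are the log2 change over the square root of F. Shares used the same test over 7 classes at a false discovery rate of 0.1, with annotated nuclei as the offset. The gene tests were checked on simulated data, as given above. The share test was tried on simulated counts with an assumed dispersion not taken from these data. That trial cannot show how the share test behaves at their spread. Replicate numbers were taken as the study's batches of animals, since its text describes 2 batches of each genotype while the labels give only the number. Replicate 1 minus replicate 2 correlated at 0.16 across 7719 genes between genotypes, and a replicate block was an alternative. Genes named in the text were Tbx1, list members, the 20 genes with the widest margin over all classes, the 5 genes each way with the smallest p, and the sex genes. List members were not named strictly by level, so those named do not stand for their lists, whose counts are given. Genes called with the block and the 8 genes used to divide the nuclei were named after their values were seen. Alternatives also covered RLE factors, no count filter, nuclei with at least 2000 genes, leaving out the 8% of nuclei with most UMIs or each library in turn, and pseudocounts of 1 and 50 CPM. Those using cartilage UMIs or haemoglobin, or leaving out the nucleus with most UMIs of a gene or list, were added after the data were seen.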

Additional observations from a re-analysis of the deposited data

Results flagged for a closer look

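Among 36 groups of 4 libraries examined, 4 held a library set far apart from the other 3, where chance gives about 1 in 20. Sox9 in matured chondrocytes stood at 194 CPM in WT replicate 1, against 121 to 132 CPM in the other libraries. Pth1r stood at 1718 CPM in Tbx1+/- replicate 2, against 1241 to 1319 CPM. Epyc, which encodes the small proteoglycan epiphycan, stood at 198 CPM in Tbx1+/- replicate 1 on 33 UMIs, against 71.3 to 91.8 CPM. Haemoglobin UMIs numbered 5462 in WT replicate 2, against 151 to 1010, and 4737 of them lay in 1 nucleus. What set these libraries apart was not tested.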

How the results depend on the processing

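The count of genes called between genotypes, 0 without a batch term, was 18 with the replicate block, 10 without the filter on low counts, 12 with the block and without haemoglobin-rich nuclei, and 4, or 10 with the block, in nuclei with 2 or more cartilage UMIs. It was 6 to 27 with 1 library left out. The share of matured chondrocytes (log2 change 0.25) was -0.27 with the replicate block and -1.75 to 1.09 with 1 library left out. The number per progenitor (-0.15) was 0.18 in nuclei with at least 2000 genes and -1.52 to 1.21 with 1 library left out. The block changed no call for these measures other than the genes. Genes higher than in every other class numbered 86, or 50 with a pseudocount of 50 CPM, 287 over 5 classes after subtracting osteoclast CPM and 137 in nuclei with 2 or more cartilage UMIs. Genes higher than in progenitors numbered 274, or 137 and 583 under the first 2 of these, and genes lower numbered 667, or 419 under the first. The log2 change of Col2a1 between genotypes, -0.01, was 0.13 with the replicate block, 0.12 with the block and without haemoglobin-rich nuclei, and 0.050 in nuclei with at least 2000 genes, where Comp was -0.055. With 1 library left out, Col2a1 ran from -0.52 to 0.79, Acan from -0.14 to 0.83, Hapln1 from -0.22 to 1.76, Comp from -0.33 to 0.76, Sox9 from -0.59 to 0.12 and Hba-a1 from -3.82 to 0.056. The causes were not tested. With 3 libraries, the spread is estimated from 1 genotype only and assumed for the other. Depth limits Tbx1+/- replicate 1 most, with 48 nuclei. With 2 libraries per genotype no exact test can pass 0.05. Free RNA was not removed, so levels of genes abundant in the bone, such as Col1a1 or Ctsk, include an unknown part from other cells. Of the alternatives for the share, the ratio and the counts of genes, 49 kept the result and 6 turned the direction. A further 15 moved a count, by over 1.5 times or, for genes called between genotypes, from 0 to some calls. The remaining 1, the share without Tbx1+/- replicate 1, kept its direction at a log2 change of 1.09.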

Other observations

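On the osteoclast, Schwann and immune marker lists, 1 of 5, 1 of 3 and 1 of 3 genes tested differed from chondrocyte progenitors. Nfatc1, a calcium-responsive factor of osteoclasts, averaged 116 ± 23.3 CPM against 38.1 ± 3.90 in progenitors and 1042 CPM in osteoclasts, while the osteoclast marker Calcr was near 0. Cdh19, a cadherin of Schwann cells, averaged 49.1 ± 18.1 CPM against 10.0 ± 2.71. Ebf1, on the list for B cells and other immune cells but also used by mesenchymal cells, was lower, at 1526 ± 352 against 3134 ± 172 CPM.

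Between genotypes, 16 of 22 genes of glycosaminoglycan synthesis and 11 of 13 hypertrophy genes had a positive log2 change (medians 0.23 and 0.21), against 3881 of 7719 genes, and 0 were called by edgeR without the block. Within the batches, the medians were 0.33 and 0.11 for the synthesis genes and -0.054 and 0.26 for the hypertrophy genes, which thus leaned upward in the second batch only. Of the genes called with the block, Enpp1, which makes pyrophosphate, an inhibitor of mineralisation, stood at 93.9 CPM in WT replicate 1, 240 in Tbx1+/- replicate 1, 38.8 in WT replicate 2 and 88.8 in Tbx1+/- replicate 2 (log2 change 1.29 with the block, adjusted p = 0.0153 by edgeR). It was higher in Tbx1+/- within each batch, and the groups overlapped across batches. A single nucleus held 18 of 40 Enpp1 UMIs in Tbx1+/- replicate 1. Dach1 stood at 68.9, 24.0, 269 and 53.7 CPM in the same order (log2 change -2.17 with the block, adjusted p = 2.85e-07 by edgeR), and both WT libraries lay above both Tbx1+/- libraries. In WT replicate 2, 84 of 111 Dach1 UMIs lay in 1 nucleus, without which it stood at 68.2 CPM there. In osteoclasts Dach1 was also lower in Tbx1+/- within each batch, at 52.2, 35.3, 78.6 and 26.2 CPM. In nuclei with 2 or more cartilage UMIs Dach1 stood at 68.2, 25.8, 53.8 and 57.6 CPM, so its direction turned in the second batch. It was not among the genes called there.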
